A study of Mus musculus with 15 samples.

Results

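Mouse bone marrow progenitors without functional Apc were compared with progenitors that kept a mild Apc allele. The comparison set 3 arrays of genotype 15lox/15lox against 3 arrays of genotype 15lox/1572T, which are 6 of the 15 arrays of the series, and covered 18194 genes. The cells were LSK cells of C57BL6 mice, the lineage-negative, Sca-1-positive and c-Kit-positive fraction of bone marrow that holds stem cells and multipotent progenitors. In 15lox/15lox both copies of Apc are the 15lox allele, which carries lox sites. In 15lox/1572T a single copy is, and the other carries the hypomorphic 1572T allele. The remaining arrays were 3 of genotype 15lox/1638N, whose second copy is the hypomorphic 1638N allele, and 6 of genotype wt/wt. Per the labels' protocols, cells of every genotype received the same MSCV retrovirus encoding Cre and GFP, grew in Stemspan medium with added mouse cytokines, and were sorted for GFP, so no group is untreated. RNA came from more than 10000 sorted cells per sample and was amplified before labelling. The labels give neither age nor sex and do not say whether the replicates came from separate animals, so the tests cover the spread between samples, which may be technical.

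Apc holds together the protein complex that targets beta-catenin for destruction. When Apc is lost, beta-catenin accumulates, enters the nucleus and switches on genes together with the DNA-binding proteins Lef1 and the Tcf factors. Several of these targets, Axin2 among them, encode inhibitors of the same pathway and serve as its usual readouts. In blood, the pathway is known for dose-dependent effects on stem cells and for its role in early T cell development. The contrast between these genotypes asks which genes separate a high from a mild Wnt signal when both groups are Apc mutants that received Cre.

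Lef/Tcf proteins bind short DNA sites, written here as heptamers. The promoter windows below, from 250 bases before to 50 bases after a RefSeq start site in build GRCm38.p6, belong to genes with some of the largest differences or to standard readouts of the pathway, and those of Lef1 and Tnfrsf19 were picked from several listed windows because they held a match. The heptamers searched were CTTTGAA and its variant CTTTGAT, together with CTTTGTA and the related heptamer CTTTGTT. Both strands were searched, overlapping matches were counted, and capitals mark each match. Windows are written 5′ to 3′ along the gene.
Edar, chr10:58675647-58675946, minus strand: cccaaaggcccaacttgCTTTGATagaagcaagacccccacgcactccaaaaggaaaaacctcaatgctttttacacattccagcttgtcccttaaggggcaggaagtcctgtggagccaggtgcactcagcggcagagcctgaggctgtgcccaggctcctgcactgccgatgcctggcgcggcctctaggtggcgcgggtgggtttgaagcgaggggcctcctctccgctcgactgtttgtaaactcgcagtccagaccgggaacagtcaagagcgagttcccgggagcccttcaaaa
Lef1, most downstream listed start, chr3:131156044-131156343, plus strand: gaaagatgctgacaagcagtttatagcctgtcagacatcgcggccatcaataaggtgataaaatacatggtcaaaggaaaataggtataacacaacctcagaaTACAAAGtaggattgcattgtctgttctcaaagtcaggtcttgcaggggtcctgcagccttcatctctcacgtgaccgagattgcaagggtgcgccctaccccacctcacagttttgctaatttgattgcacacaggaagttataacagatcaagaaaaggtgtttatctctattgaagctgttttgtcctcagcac
Tnfrsf19, most downstream listed start, chr14:61037938-61038237, minus strand: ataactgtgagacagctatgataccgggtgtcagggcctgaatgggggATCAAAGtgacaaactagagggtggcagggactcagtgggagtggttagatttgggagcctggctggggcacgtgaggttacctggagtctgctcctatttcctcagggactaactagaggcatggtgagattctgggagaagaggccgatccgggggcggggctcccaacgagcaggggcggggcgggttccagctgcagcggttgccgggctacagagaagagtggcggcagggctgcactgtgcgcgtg
Axin2, chr11:108920099-108920398, plus strand: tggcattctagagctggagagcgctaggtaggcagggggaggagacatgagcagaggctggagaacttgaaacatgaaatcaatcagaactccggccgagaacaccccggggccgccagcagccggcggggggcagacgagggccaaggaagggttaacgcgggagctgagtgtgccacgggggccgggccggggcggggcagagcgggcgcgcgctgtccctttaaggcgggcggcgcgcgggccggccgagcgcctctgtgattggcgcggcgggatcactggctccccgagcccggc
Sult1a1, chr7:126676369-126676668, minus strand: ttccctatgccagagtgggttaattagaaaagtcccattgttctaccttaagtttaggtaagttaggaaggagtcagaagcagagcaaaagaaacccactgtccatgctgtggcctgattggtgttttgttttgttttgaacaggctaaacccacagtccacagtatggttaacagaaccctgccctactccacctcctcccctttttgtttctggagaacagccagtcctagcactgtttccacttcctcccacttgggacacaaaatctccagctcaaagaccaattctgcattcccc

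The Edar window held a heptamer whose first base lay at -233 from the start site, the Lef1 window at -147 and the Tnfrsf19 window at -202. Those of Axin2 and Sult1a1 held none of these heptamers, and neither did the other 3 listed windows of Lef1, the other listed window of Tnfrsf19, or the windows of Dkk2, Nkd1, Wif1, Bmp4 and Ahsg. Of the listed windows of Wnt11, 1 held a heptamer, at -51, and the other held none. Of the 18194 genes tested, 14453 had a listed window, and 13.4% of their windows held a heptamer (2421 of 18110). The corresponding share was 11.7% for the genes higher in 15lox/15lox (28 of 240 windows, from 169 of those 219 genes with a listed window). For the 12 lower genes it was 20% (3 of 15 windows). A match is a string of letters in a window and not a measured binding site.

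Each value below is the log2 level of a probe set, and each difference is 15lox/15lox minus 15lox/1572T on the log2 scale with its standard error from a limma fit to the 9 mutant arrays. Where a gene had several probe sets, the one with the highest mean over all 15 arrays stood for it. A gene was called at a Benjamini-Hochberg adjusted p under 0.05 over all genes. Array medians lay between 6.65 and 6.84, and arrays of these genotypes correlated at 0.992 to 0.996 within and 0.988 to 0.992 between genotypes. Wild-type levels are given from arrays 4 to 6 and were not tested, because wild-type arrays 1 to 3 had a mean within 0.05 of the mean of arrays 4 to 6 at 96.8% of probe sets. By the Xist level alone, cut at the middle of its range over the mutant arrays, 2 of 3 arrays of 15lox/15lox and 1 of 3 of 15lox/1572T were of female type. Of 9 LSK genes measured none was called, beside 1.27% of all genes, and 1 had an unadjusted p under 0.05 (8.22% of all genes). Their differences ran from -0.38 (Cd48) to 0.37 (Cd27), and their 15lox/15lox means from 7.73 to 13.52. The highest was Cd34, with means of 13.52 in 15lox/15lox and 13.42 in 15lox/1572T. In RNA from a sorted population, fewer cells of a type and less RNA per cell cannot be told apart.

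The Apc probe sets separated the genotypes before any target gene was considered. Probe set 1420956_at gave 5.58, 6.10 and 5.69 in 15lox/15lox and 8.96, 8.86 and 8.64 in 15lox/1572T. Its difference was -3.03 ± 0.15, which is 8.18-fold lower in 15lox/15lox (adjusted p = 0.00017 over all probe sets). The ranges were far apart, and the 15lox/1638N mean of 8.55 ± 0.11 (SD, n = 3) lay near the 15lox/1572T arrays. Probe set 1420957_at showed the same pattern, with 4.92, 5.36 and 4.90 against 8.50, 8.30 and 7.72 and a difference of -3.12 ± 0.25 (adjusted p = 0.00091). The other pair of Apc probe sets did not pass. For 1450056_at the difference was -0.68 ± 0.17 (adjusted p = 0.206), with all 15lox/15lox arrays below the 15lox/1572T arrays. For 1435543_at, the brightest of the 4 and therefore the probe set that stands for Apc in the counts over genes, it was 0.25 ± 0.14 (adjusted p = 0.842). Which part of the transcript each probe set reads was not analysed here.

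**Figure D1:**
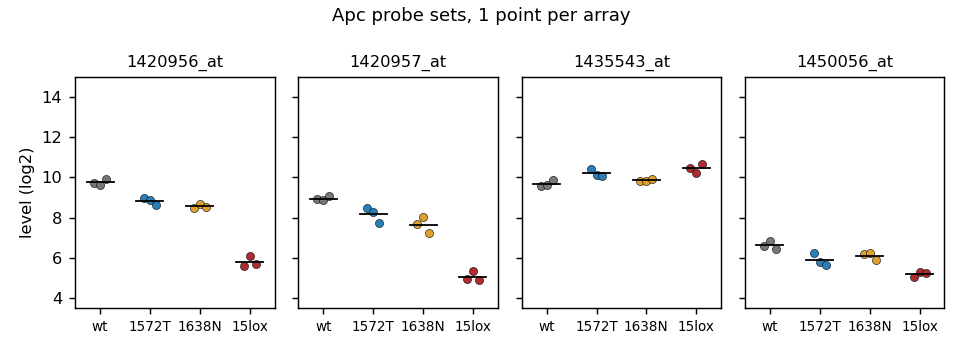
Log2 level of the 4 Apc probe sets on each array of wild type (arrays 4 to 6), 15lox/1572T, 15lox/1638N and 15lox/15lox. Points are arrays and bars are means of 3 arrays. In 1420956_at the 15lox/15lox arrays lie between 5.58 and 6.10 and the 15lox/1572T arrays between 8.64 and 8.96, while 1435543_at shows no such drop.

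Across the genome the difference ran almost entirely upwards. Of 18194 genes, 231 were called (1.27%), 219 higher in 15lox/15lox (1.20%) and 12 lower (0.0660%). The higher genes had a median difference of 1.57, 169 of them exceeded 2-fold, 77 exceeded 4-fold, 40 exceeded 8-fold and 13 exceeded 16-fold. Only 1 of the lower genes exceeded 2-fold, and their median difference in size was 0.70. No such excess of higher genes appeared in the bulk of the table, where the median was -0.020 and 10171 of 18194 genes were below 0. For all 219 higher and 12 lower genes the arrays of the genotypes did not overlap. Over all genes, 1112 (6.11%) had the 15lox/15lox arrays entirely above and 975 (5.36%) entirely below, and 1495 (8.22%) had an unadjusted p under 0.05. Leaving out 15lox/1572T replicate 1 lowered the total from 231 to 138 genes, and leaving out 15lox/15lox replicate 1 lowered it to 153. In 52 of the 219 higher genes the 15lox/1572T mean was under 5.5, close to the floor of the array. A ratio against such a level depends on background signal, and detection calls were not used here.

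**Figure D2:**
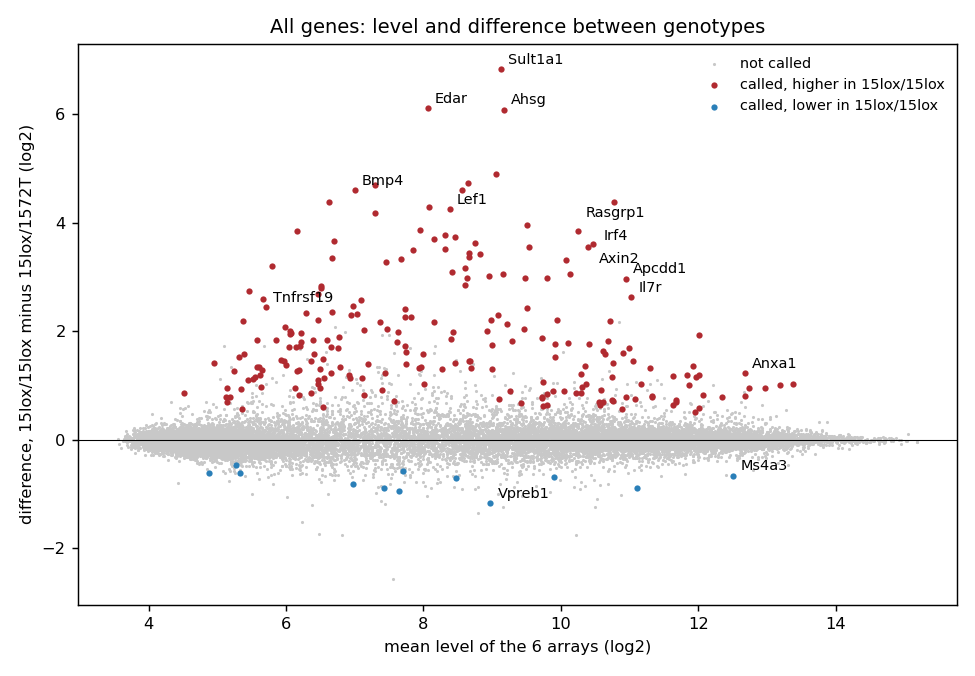
Difference 15lox/15lox minus 15lox/1572T (log2, vertical) against the mean level of the 6 arrays (log2, horizontal) for 18194 genes. The 219 red points are called higher and the 12 blue points called lower in 15lox/15lox; the red points reach 6.83 (Sult1a1) while the blue points end at -1.18 (Vpreb1).

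Sult1a1, a sulfotransferase of phenols, showed the largest difference of all called genes. It gave 12.10, 12.51 and 13.02 in 15lox/15lox and 5.33, 5.38 and 6.42 in 15lox/1572T. The difference was 6.83 ± 0.40, or 114-fold (adjusted p = 0.00024), and the 15lox/1572T arrays lay around the wild-type mean of 5.44 ± 0.53 (SD, n = 3). Edar, the receptor of ectodysplasin that patterns hair and tooth buds, gave 11.28, 10.86 and 11.22 against 4.51, 4.99 and 5.54. Its difference was 6.11 ± 0.29, or 68.9-fold (adjusted p = 7.6e-05). A second Edar probe set stayed at means of 3.63 and 3.71 and did not differ beyond its error (-0.08 ± 0.10). Edaradd, the adaptor of that receptor, was also higher, by 1.80 ± 0.21 (adjusted p = 0.00247), or 0.94 where its probe sets were averaged, and was singled out here after its values were seen.

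Ahsg, a plasma protein made mainly by liver and known as fetuin-A, gave 12.20, 12.24 and 12.21 in 15lox/15lox and 6.41, 5.86 and 6.12 in 15lox/1572T. This was a 68-fold difference (6.09 ± 0.39, adjusted p = 0.00028), with 15lox/15lox arrays within 0.04 of each other. Its relative Fetub, also singled out after its values were seen, rose by 3.21 ± 0.33 (adjusted p = 0.00153). Bmp4, a growth factor of the TGF-beta family, gave 8.87, 9.75 and 9.29 against 4.34, 4.67 and 5.08. The 15lox/1572T arrays lay at the level of wild type, whose mean was 4.83 ± 0.19 (SD, n = 3), and the difference was 4.60 ± 0.48 (adjusted p = 0.00153).

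The other genes among the 15 with the largest increases came from several functions. The calcium-binding mitochondrial protein Efhd1 differed by 4.90 ± 0.37, Phlda1 by 4.73 ± 0.38 and Mb21d2 by 4.70 ± 0.37. Plpp1, a lipid phosphatase, rose from 7.92, 8.72 and 9.09 to 12.90, 12.88 and 13.12, and a second probe set of the gene moved alike (4.54 ± 0.30). The third lay at means of 4.45 and 4.21 and differed by 0.24 ± 0.10 (adjusted p = 0.696 over all probe sets). Genes better known from neurons were among them. The neurotrophin receptor Ntrk3 differed by 4.29 ± 0.41, the kinase Dclk1 by 4.38 ± 0.48 and the beta-tubulin Tubb3 by 3.87 ± 0.52 (adjusted p = 0.00625). Tfcp2l1, a transcription factor of mouse embryonic stem cells, differed by 4.18 ± 0.29, and Zcchc14 by 3.96 ± 0.30. All 15 remained called under every alternative setting tried, although averaging all probe sets lowered the difference of Edar to 3.01, of Mb21d2 to 2.33, of Tfcp2l1 to 1.37, of Dclk1 to 2.16, of Ntrk3 to 2.04 and of Lef1 to 2.41.

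Inhibitors that feed back on the pathway held 6 called genes among 20 measured, all higher, against 1.20% of all genes. Their median difference was 0.38, beside -0.020 over all genes. The list was written with earlier results of these data known, so these values describe it and do not test it. Axin2, the inducible scaffold of the degradation complex, gave 12.28, 12.29 and 11.94 in 15lox/15lox and 7.69, 8.80 and 9.32 in 15lox/1572T. Axin2 rose by 3.56 ± 0.35, or 11.8-fold (adjusted p = 0.00101). Its second probe set differed by 0.88 ± 0.23 (adjusted p = 0.267 over all probe sets), and averaging the pair gave 2.22. The spread lay mostly in 15lox/1572T, whose SD was 0.83 against 0.20, and all 15lox/1572T arrays were above the wild-type mean of 7.40 ± 0.16 (SD, n = 3). Apcdd1, a membrane inhibitor of Wnt signals, gave 12.37, 12.29 and 12.64 against 9.12, 9.28 and 9.99 and rose by 2.97 ± 0.23 (adjusted p = 0.00044). Its 6 probe sets all passed singly, with differences from 2.61 to 3.74.

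Nkd1, which antagonises the signal transducer Dishevelled, gave 8.90, 8.77 and 8.91 against 6.55, 6.42 and 6.79. The rise was 2.27 ± 0.19 (adjusted p = 0.00053). On the other Nkd1 probe sets it was 3.43 ± 0.27, 4.78 ± 0.27 and 0.93 ± 0.13. The secreted antagonists followed. Dkk2, a ligand of the Lrp co-receptors, differed by 2.59 ± 0.19 (adjusted p = 0.00036). Wif1, which binds Wnt proteins directly, differed by 1.83 ± 0.20 (adjusted p = 0.00205). Notum, an enzyme that removes the lipid from Wnt proteins, differed by 1.80 ± 0.35 (adjusted p = 0.0426). Notum lost the call in 10 of 22 alternative settings. Its adjusted p was 0.149 and 0.113 without 15lox/15lox replicates 1 and 2, 0.139, 0.161 and 0.0821 without 15lox/1572T replicates 1, 2 and 3, and 0.0589 and 0.0774 without 15lox/1638N replicates 1 and 2. Dkk2 had 15lox/1572T values of 4.48, 4.42 and 4.22 beside a wild-type mean of 4.54 ± 0.14 (SD, n = 3), so its 15lox/15lox mean of 6.96 ± 0.31 stood apart from both. Dkk1 (1.34 ± 0.30, adjusted p = 0.0964) and the ubiquitin ligases of Wnt receptors Znrf3 (0.76 ± 0.18, adjusted p = 0.107) and Rnf43 (1.21 ± 0.47, adjusted p = 0.51) did not pass. Dkk1 passed in 5 of 20 alternative settings, among them leaving out 15lox/15lox replicate 3 (adjusted p = 0.0328). When each mutant array was left out in turn, the list held between 5 and 7 called genes.

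Within the machinery itself most genes did not pass. Axin2 was the called gene among 16 measured members of the degradation complex, beside 1.27% of all genes called. The median difference of these members was 0.04. Ctnnb1, the gene of beta-catenin, had means of 13.88 and 13.73 and a difference of 0.15 ± 0.10 (adjusted p = 0.822). Of 20 Frizzled and Lrp receptors none was called, with 5 at an unadjusted p under 0.05, beside 8.22% of all genes. Among 21 Wnt ligands and their secretion factors the call was Wnt11, beside 1.27% of all genes called. Wnt11 is a ligand known mainly from non-canonical signalling. It gave 7.67, 7.42 and 7.55 against 6.58, 6.64 and 6.93, a difference of 0.83 ± 0.16 (adjusted p = 0.0391), and it lost the call in 11 of 22 alternative settings. These included leaving out 15lox/15lox replicate 1, 2 or 3 (adjusted p = 0.158, 0.0807 and 0.118), 15lox/1572T replicate 1 or 2 (0.166 and 0.144) and 15lox/1638N replicate 1 or 2 (0.0531 and 0.0639).

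Lef1 was the called gene among 18 Lef/Tcf factors and nuclear cofactors, beside 1.27% of all genes called. It gave 11.22, 10.79 and 9.53 in 15lox/15lox and 6.36, 6.12 and 6.30 in 15lox/1572T, a difference of 4.25 ± 0.41, or 19.1-fold (adjusted p = 0.00101). Its 15lox/1572T mean of 6.26 ± 0.13 lay beside the wild-type mean of 6.57 ± 0.53, and its 15lox/1638N mean of 10.49 ± 0.59 beside the 15lox/15lox mean of 10.51 ± 0.88 (SD, n = 3 each). Lef1 therefore had low values in 15lox/1572T on the same arrays where Axin2 was between 7.69 and 9.32. The second Lef1 probe set was near background, with means of 4.61 and 4.03. Tcf7l2 had a difference of 0.56 and an adjusted p of 0.0912. Tcf7 was not analysed here.

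**Figure D3:**
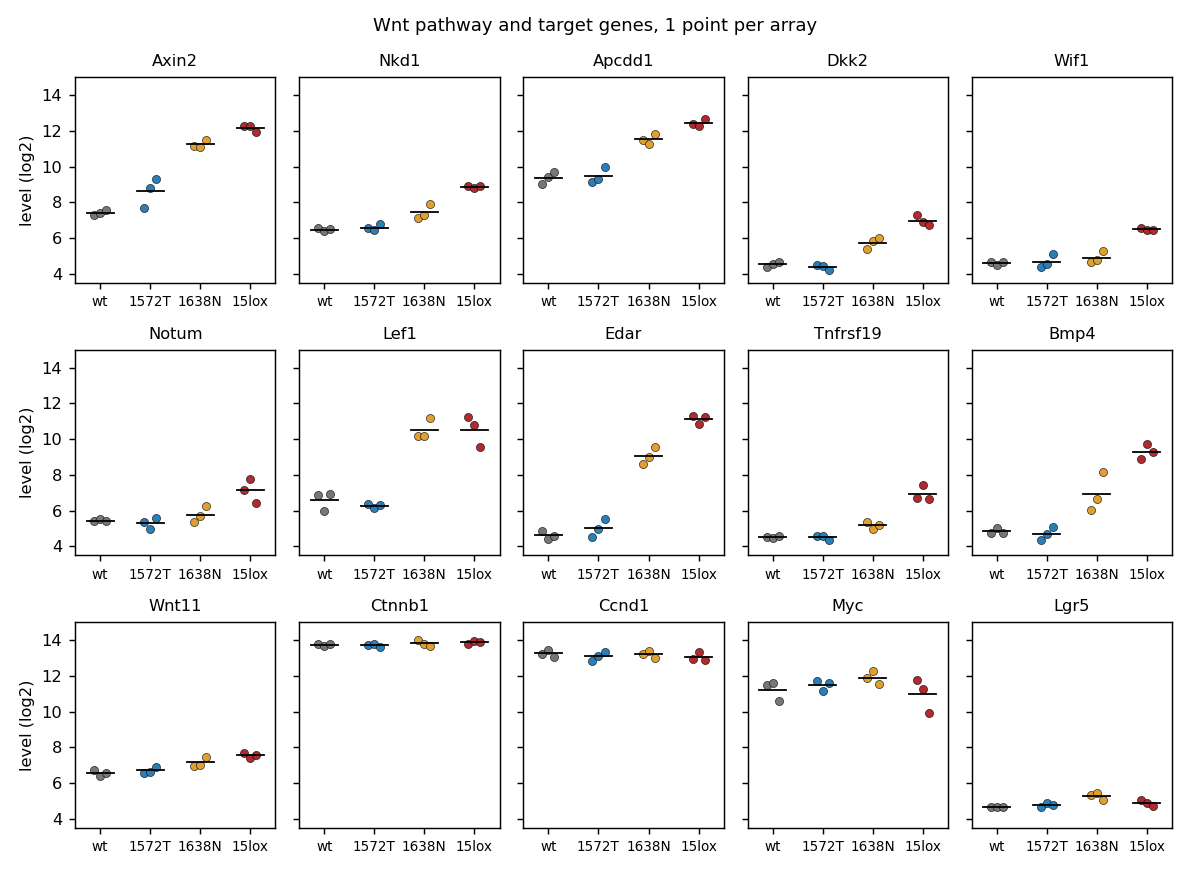
Log2 level of 15 Wnt pathway and target genes on each array of wild type (arrays 4 to 6), 15lox/1572T, 15lox/1638N and 15lox/15lox; points are arrays and bars are means of 3. Axin2 is at 7.69 to 9.32 in 15lox/1572T and at 11.94 to 12.29 in 15lox/15lox, Lef1 and Dkk2 lie near the wild-type arrays in 15lox/1572T, and Ctnnb1, Ccnd1, Myc and Lgr5 show no called difference.

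Targets described in intestine and embryo were a mixed group, with 3 of 28 measured genes called, all higher, against 1.20% of all genes and a median difference of -0.01. These were Edar, Bmp4 and Tnfrsf19, a receptor also called Troy that marks stem cells of the gut. This list too was written with earlier results of these data known, so its share of calls is not a test. Tnfrsf19 gave 6.68, 7.45 and 6.65 against 4.55, 4.57 and 4.36 and rose by 2.44 ± 0.21 (adjusted p = 0.00053). Its other probe sets did not differ beyond their errors (0.08 ± 0.20 and -0.11 ± 0.13), and averaging all of them gave 0.80. Sp5, a transcription factor induced by Wnt in the embryo, had a difference of 1.40 ± 0.28 and an adjusted p of 0.0561. It passed in 8 of 22 alternative settings, among them leaving out 15lox/15lox replicate 3 (adjusted p = 0.00177). Lgr5, the marker of intestinal stem cells, was at means of 4.87 and 4.79, with a difference of 0.08 ± 0.13 (adjusted p = 0.968). Ccnd1, the cyclin often named as a target, had a difference of -0.05 ± 0.17 (adjusted p = 0.992). Myc gave 11.77, 11.27 and 9.95 against 11.71, 11.13 and 11.62, so 15lox/15lox replicate 3 was lower than the other 5 arrays. Its difference of -0.49 ± 0.41 (adjusted p = 0.881) became 0.03 without that replicate.

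Genes of lymphocyte signalling held 4 called genes of 16, all higher, against 1.20% of all genes, with a median difference of 0.38. Since this list was written with earlier results of these data known, its share of calls is not a test. Cd83, a surface protein of activated dendritic cells and lymphocytes, gave 10.64, 11.13 and 10.82 against 6.46, 6.31 and 6.00 and rose by 4.61 ± 0.29 (adjusted p = 0.00028). Rasgrp1, which activates Ras below antigen receptors, gave 12.48, 11.81 and 12.21 against 7.95, 8.03 and 9.01 and rose by 3.84 ± 0.42 (adjusted p = 0.00195), or by 2.54 where its probe sets were averaged. The 15lox/1572T arrays of Rasgrp1 were themselves above the wild-type mean of 6.19 ± 0.61 (SD, n = 3). Btla, an inhibitory receptor, rose by 2.21 ± 0.25 (adjusted p = 0.00238). The fourth was Nfatc2, a calcium-dependent transcription factor, at 0.57 ± 0.10 (adjusted p = 0.0337). Nfatc2 had a 15lox/15lox mean of 11.18 near the wild-type mean of 11.24, and a 15lox/1572T mean of 10.61 below both. It lost the call in 14 of 22 settings, among them leaving out 15lox/15lox replicate 2 or 3 (0.111 and 0.0933), 15lox/1572T replicate 1, 2 or 3 (0.0919, 0.0971 and 0.101) and 15lox/1638N replicate 1, 2 or 3 (0.0734, 0.0683 and 0.0631), and averaging its probe sets gave 0.08. Pdcd1, the receptor PD-1, had a difference of 1.62 ± 0.42 and an adjusted p of 0.174.

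Irf4, a transcription factor of lymphocytes and dendritic cells, gave 12.30, 12.23 and 12.29 in 15lox/15lox. The 15lox/1572T arrays gave 8.47, 8.08 and 9.46, and their mean of 8.67 ± 0.71 was below the wild-type mean of 9.23 ± 0.25 (SD, n = 3 each). Its second probe set lay at means of 5.01 and 4.61 and differed by 0.41 ± 0.19 (adjusted p = 0.768 over all probe sets), and averaging the pair gave 2.01. On the probe set used, Irf4 rose by 3.61 ± 0.38 (adjusted p = 0.00153). It was the called gene among 17 genes of MHC class II and dendritic cells, beside 1.27% of all genes called. Il7r, the interleukin-7 receptor of early lymphoid cells, gave 12.50, 11.89 and 12.64 against 9.71, 9.64 and 9.78 and rose by 2.63 ± 0.40 (adjusted p = 0.012). It was the called gene among 15 early lymphoid genes and among 19 cytokine receptors, beside 1.27% of all genes called. It missed the threshold without 15lox/15lox replicate 1 (adjusted p = 0.0632) or replicate 3 (0.0522) and without 15lox/1572T replicate 1 (0.0601) or replicate 2 (0.0566).

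Gata3, a transcription factor of T and innate lymphoid cells, rose by 1.86 ± 0.30 (adjusted p = 0.0172) and Pou2af1, a coactivator in B cells, by 2.18 ± 0.36 (adjusted p = 0.0203). For Gata3 the 15lox/1572T mean of 7.47 ± 0.36 was below the wild-type mean of 8.12 ± 0.17, and the 15lox/15lox mean of 9.33 ± 0.33 above it (SD, n = 3 each). Gata3 and Pou2af1 were the genes called higher among 17 T lineage and 16 B lineage genes, beside 1.20% of all genes. The medians of these lists were -0.01 and -0.05. Both means were under 5.5 in 6 of the T lineage and 4 of the B lineage genes. Of these, named after their values were seen, Cd3e had means of 4.97 and 4.78, Cd3g of 4.81 and 4.82, Pax5 of 5.06 and 5.10, and Ms4a1, the gene of CD20, of 4.83 and 4.89. Other members were high in both genotypes, with 15lox/15lox means of up to 10.04 (Lat) and 11.10 (Cd79b). The mean level over the T lineage list was 6.94 to 7.15 on the 15lox/15lox arrays and 6.64 to 7.09 on the 15lox/1572T arrays. Wild-type arrays 4 to 6 gave 7.23, 7.32 and 7.22. Without 15lox/15lox replicate 1 neither gene passed, with adjusted p of 0.0781 for Gata3 and 0.0955 for Pou2af1, and the same held without 15lox/15lox replicate 3 (0.0512 and 0.0775) and without 15lox/1572T replicate 2 (0.0784 and 0.0914) or 3 (0.0674 and 0.057). Pou2af1 also missed without 15lox/1572T replicate 1 (0.0851).

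**Figure D4:**
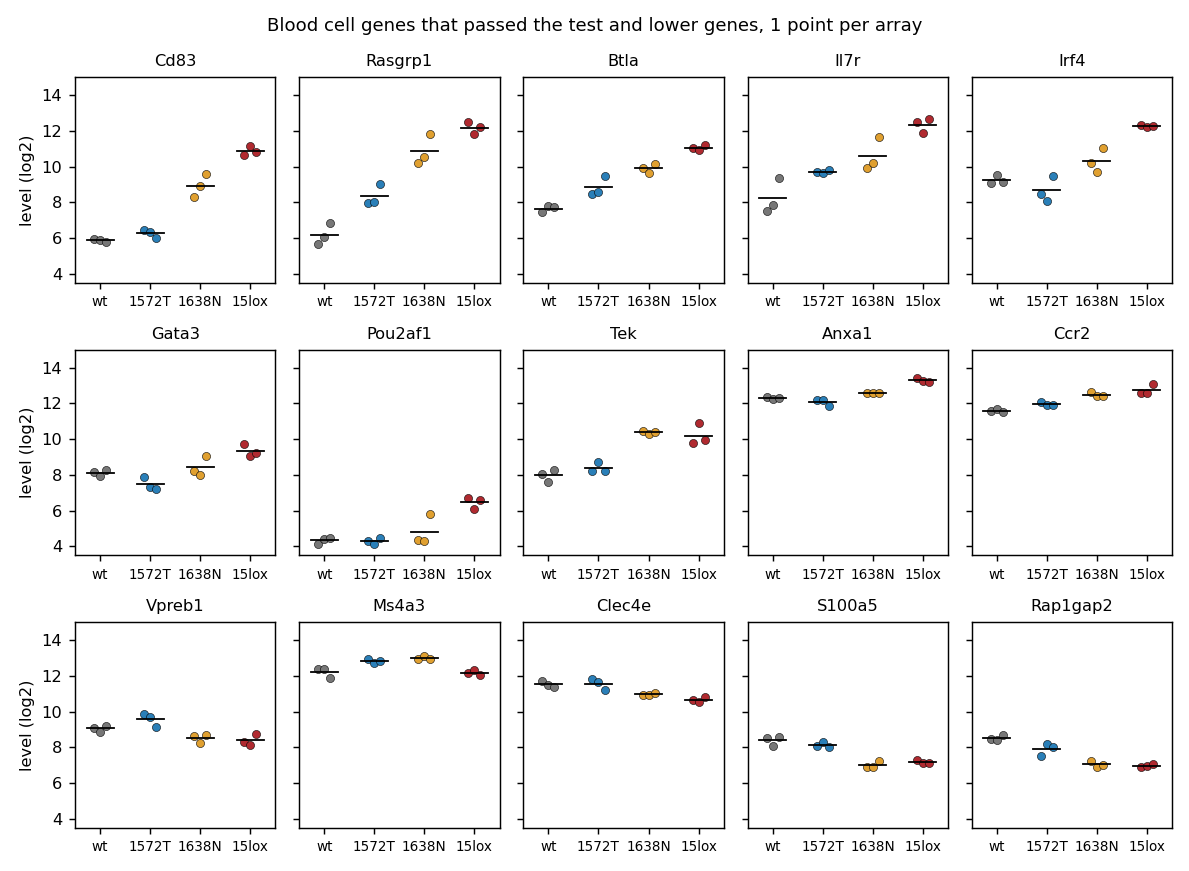
Log2 level of 10 higher and 5 lower genes of blood cells or of the lower group on each array of wild type (arrays 4 to 6), 15lox/1572T, 15lox/1638N and 15lox/15lox; points are arrays and bars are means of 3. Irf4 lies between 12.23 and 12.30 in 15lox/15lox and between 8.08 and 9.46 in 15lox/1572T, and the lower genes show smaller gaps, as Ms4a3 does with 12.04 to 12.31 against 12.72 to 12.96.

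Of 29 stem cell genes measured, 1 was called, against 1.27% of all genes, and the median was -0.06. That gene was Tek, the angiopoietin receptor of stem cells and endothelium. It gave 9.76, 10.89 and 9.93 against 8.22, 8.71 and 8.20, and rose by 1.82 ± 0.27 (adjusted p = 0.0105). The call was lost without 15lox/1572T replicate 1 (adjusted p = 0.0599). Prdm16, a regulator of stem cell maintenance, had a difference of 0.50 (adjusted p = 0.311), Mecom of 0.43 (adjusted p = 0.624) and Hlf of 0.28 (adjusted p = 0.875). Gata2, a factor of stem cells and mast cells, was at 13.07 and 13.53 (-0.47, adjusted p = 0.212). Among 19 Hox, Meis and Pbx genes none was called and none had an unadjusted p under 0.05. Endothelial and stromal genes had 1 call in 15, beside 1.27% of all genes. This was the matrix protein Fn1 at 1.40 ± 0.20 (adjusted p = 0.00771), or 0.79 where its probe sets were averaged. The endothelial gene Cdh5 stayed at a mean of 4.92 in both genotypes.

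Myeloid and erythroid lists, also written with earlier results of these data known, held some calls, beside 1.27% of all genes. These were 1 of 18 monocyte genes, 1 higher and 1 lower of 19 neutrophil genes, and 1 of 17 erythroid genes. Anxa1, an anti-inflammatory phospholipid-binding protein, gave 13.43, 13.23 and 13.20 against 12.17, 12.17 and 11.85 and rose by 1.22 ± 0.11 (adjusted p = 0.00089). It missed the threshold where all probe sets were averaged (adjusted p = 0.175). Ccr2, the chemokine receptor of monocytes, rose by 0.78 ± 0.15 (adjusted p = 0.0367) and Hemgn, a nuclear protein of erythroid cells and progenitors, by 0.73 ± 0.14 (adjusted p = 0.0368). Ccr2 lost the call in 11 and Hemgn in 13 of 22 alternative settings. For Ccr2 these were in part the fits without 15lox/15lox replicate 1 (adjusted p = 0.0737), without 15lox/1572T replicates 1, 2 and 3 (0.0919, 0.135 and 0.113) and without 15lox/1638N replicates 1, 2 and 3 (0.0605, 0.0631 and 0.0643). For Hemgn they were in part the fits without 15lox/15lox replicates 1, 2 and 3 (0.0858, 0.142 and 0.121), without 15lox/1572T replicates 1, 2 and 3 (0.0926, 0.0583 and 0.0598) and without 15lox/1638N replicates 1 and 3 (0.064 and 0.0653). Mpo, the major granule enzyme, was at 14.25 and 14.32, a difference of -0.07 (adjusted p = 0.946).

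Mast cell and basophil genes had no call, beside 1.27% of all genes. Yet 13 of the 14 measured were negative, beside 10171 of all 18194 genes, and the median was -0.37. Ms4a2, a chain of the IgE receptor, gave 9.09, 8.63 and 10.28 against 11.27, 10.74 and 11.29, a difference of -1.77 ± 0.45 (adjusted p = 0.162, and 0.0384 without 15lox/15lox replicate 3). Hdc, the enzyme that makes histamine, was at 9.31, 9.89 and 10.43 against 11.03, 10.83 and 11.50 (-1.24 ± 0.31, adjusted p = 0.138). For both genes the ranges did not overlap, beside 5.36% of all genes with the 15lox/15lox arrays entirely below. An unadjusted p under 0.05 was found in 6 of the 14, beside 8.22% of all genes. Averaged over the list, the arrays lay between 8.33 and 8.70 in 15lox/15lox and between 8.82 and 9.19 in 15lox/1572T. Wild-type arrays 4 to 6 gave 8.58, 8.36 and 8.81, and the 15lox/1638N arrays 8.59, 8.24 and 8.55. The 15lox/15lox arrays thus lay near wild type on this list mean, and the 15lox/1572T arrays were the highest of the genotypes. Megakaryocyte and platelet genes also leaned below 0, with 17 of 19 negative, beside 10171 of all 18194 genes, and a median of -0.27. None was called, and 6 had an unadjusted p under 0.05 (8.22% of all genes). Their list means overlapped between the genotypes, with 9.82 the lowest in 15lox/15lox and 10.34 the highest in 15lox/1572T. Wild-type arrays 4 to 6 gave 10.15, 9.73 and 10.22.

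The 12 lower genes were few and their differences small. Vpreb1, the surrogate light chain of early B cells, gave 8.29, 8.12 and 8.76 against 9.84, 9.70 and 9.16 and differed by -1.18 ± 0.22 (adjusted p = 0.0393). Its wild-type mean was 9.06 ± 0.17 (SD, n = 3). Ms4a3, a membrane protein of granulocyte and monocyte progenitors, gave 12.16, 12.31 and 12.04 against 12.96, 12.72 and 12.84. It differed by -0.67 ± 0.11 (adjusted p = 0.0202). The wild-type mean of Ms4a3, 12.21 ± 0.30 (SD, n = 3), lay near its 15lox/15lox mean of 12.17 and below its 15lox/1572T mean of 12.84. S100a5, a calcium-binding protein, gave 7.32, 7.10 and 7.10 against 8.05, 8.31 and 8.01 and differed by -0.95 ± 0.13 (adjusted p = 0.00756). Its wild-type mean was 8.39 ± 0.29 (SD, n = 3). S100a5 kept its call under every alternative tried. The others named were Rap1gap2, Clec4e, a receptor of myeloid cells, Gchfr, Micall2, Ffar4, Spanxn4, N4bp2l2 and Srms, with differences from -0.90 to -0.47. All of these, and Vpreb1 and Ms4a3, lost the call in at least 6 alternatives. Spanxn4 had means of 4.57 in both 15lox/15lox and wild type and 5.18 in 15lox/1572T. N4bp2l2 had means of 7.41 in 15lox/15lox, 7.21 in wild type and 7.99 in 15lox/1572T. Rap1gap2, Clec4e, Gchfr, Micall2, Ffar4 and Srms had wild-type means above their 15lox/15lox means. Vpreb1 missed the threshold without 15lox/15lox replicate 1 or 2 (adjusted p = 0.152 and 0.149), 15lox/1572T replicate 1 or 2 (0.16 and 0.147) and 15lox/1638N replicate 1 or 3 (0.0767 and 0.0603). Ms4a3 missed it without 15lox/15lox replicate 1 or 3 (0.0873 and 0.0763) and 15lox/1572T replicate 1 or 3 (0.0919 and 0.0581). The count of lower genes fell from 12 to 2 without 15lox/15lox replicate 1, to 5 without its replicate 2 and to 3 without 15lox/1572T replicate 1. Leaving out 15lox/1638N replicate 1 or 3, which enter the estimate of the spread, gave 6 and 5. With sex as a covariate it was 5.

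Cell cycle and growth lists held no called gene, beside 1.27% of all genes called. This covered 20 genes of DNA replication, 21 of mitosis, 16 inhibitors of cyclin-dependent kinases and quiescence genes, and 20 of ribosome biogenesis, none of which had an unadjusted p under 0.05. Their medians lay between -0.02 and 0.06. Of 14 cyclin D and other growth targets, 19 Bcl2 family genes, 20 homing receptors, 18 Notch genes, 21 interferon genes, 15 plasmacytoid dendritic cell genes and 6 eosinophil genes none was called either. Heat shock and immediate early genes, which respond to handling of cells, had no call among 20 but a median of -0.19. Of these genes 16 were negative, beside 10171 of all 18194 genes. Their list mean was 9.19 on each 15lox/15lox array and 9.34 to 9.50 on the 15lox/1572T arrays. Wild-type arrays 4 to 6 gave 9.25, 9.19 and 9.19, so the 15lox/15lox arrays lay at the wild-type level and the 15lox/1572T arrays above it. Hspa1b, an inducible heat shock protein, had a difference of -1.36 (adjusted p = 0.148). The part of handling in other differences was not tested. Housekeeping genes had a median of 0.02 over 9 genes.

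**Figure D5:**
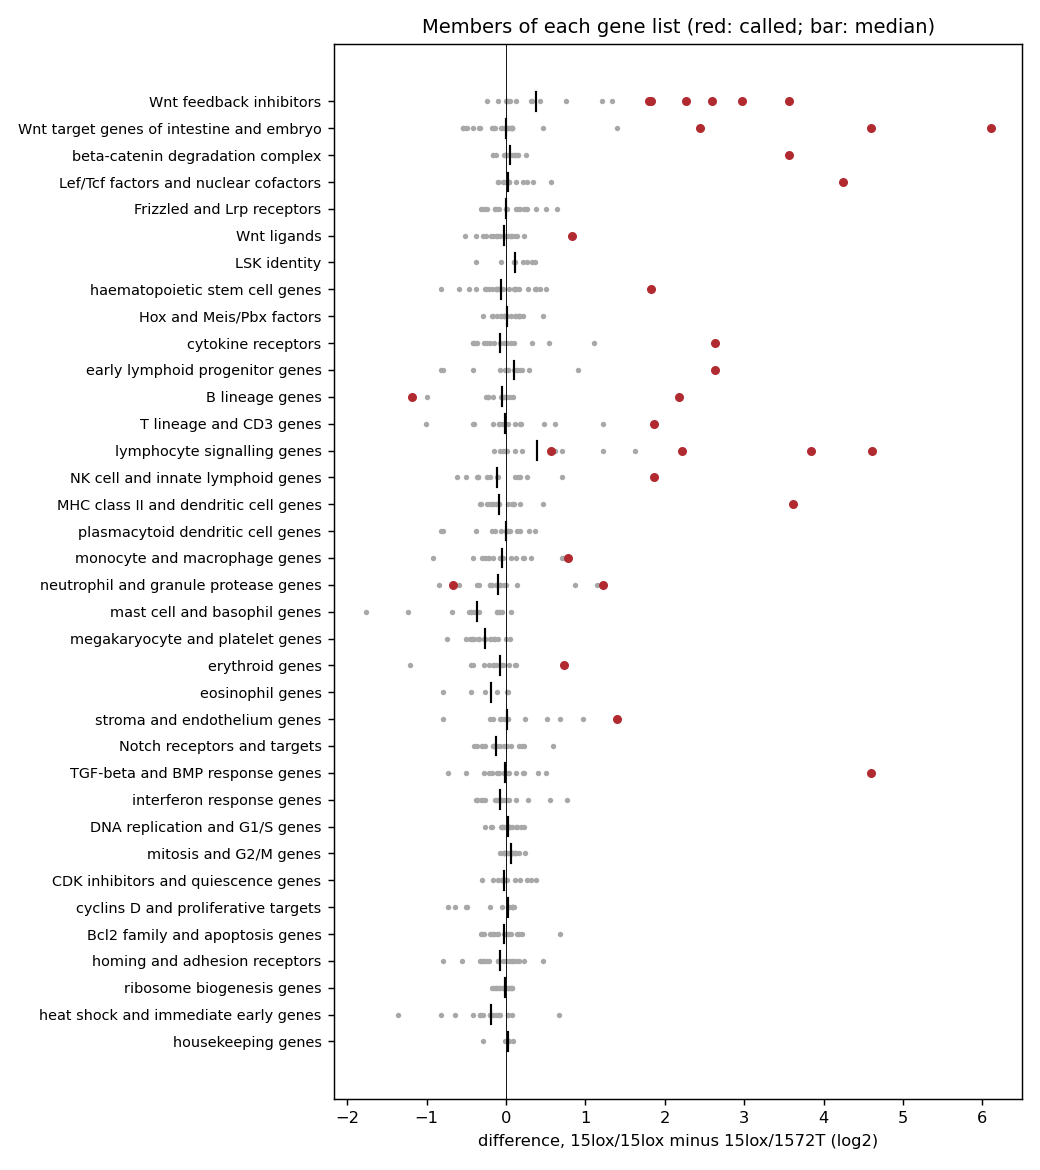
Difference 15lox/15lox minus 15lox/1572T (log2) of every measured member of 36 gene lists; each point is a gene, red points are called at an adjusted p under 0.05 and black bars are list medians. Wnt feedback inhibitors hold 6 red points and lymphocyte signalling genes 4, both with a median of 0.38, while the medians of the other lists lie between -0.37 and 0.11. All lists were written with earlier results of these data known.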

How the data were processed

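The deposited table holds log2 probe set values of 15 arrays of the Mouse430 2.0 type, 1 per sample. The log2 scale was read from the deposited values, and the submitters' processing notes name RMA and mm9 without a role or version; the sources used here give no background or filter settings. The table had 45101 probe sets and 0 missing values. The platform table gave 34958 probe sets a single symbol, 932 several and 9211 none; single-symbol probe sets were used, the brightest per gene on average over 15 arrays (18194 genes, 9012 with over 1 probe set), with no filter and no further normalization. limma 3.58.1 in R 4.3.3 (lmFit, eBayes) was fitted to the 9 mutant arrays with 1 coefficient per genotype, two-sided, with Benjamini-Hochberg adjustment over all genes; wild type stayed out because arrays 1 to 3 look shifted onto the mean of arrays 4 to 6. The fit was tested on simulated data. The number of arrays limits the precision.

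The comparison, its genes and the 36 gene lists were chosen with earlier results of these data known. Named genes were the 15 highest and 15 lowest called genes whose arrays did not overlap (placeholder symbols and sex-linked genes left out, which left 11 lower genes), 11 fixed Wnt genes and up to 4 called members of lowest p per list; all other genes named, mostly further list members, were chosen after their values were seen. Replicate numbers were not taken to pair samples, since the labels do not say that they do. Deviations correlated at 0.155, 0.011 and 0.055 between same-numbered arrays and at -0.107 to 0.04 between arrays of different number. These values do not settle the question, and a fit with a replicate block was among the alternatives. Alternatives changed the arrays in the fit, the covariates, filter, normalization, eBayes options, probe set rule and threshold, and left out each array. Promoter windows are from RefSeq (GRCm38.p6).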

Additional observations from a re-analysis of the deposited data

How the results depend on the processing

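No called gene changed sign in any of the 22 refits. The total of 231 calls stayed within 1.5 times in all but 3 groups of settings: it was 423 with all 15 arrays (367 higher, 56 lower), 129 at an adjusted p under 0.01 (128 and 1), and 138 to 217 when each array was left out (higher 135 to 210, lower 2 to 17). Leaving out arrays also lowers the residual degrees of freedom. The 12 lower calls moved most, to 4 with only the 6 arrays, 5 with sex as a covariate, 7 with all probe sets tested singly, 19 with wild-type arrays 4 to 6 added, 19 with array weights, 19 with the mean of probe sets and 20 at an adjusted p under 0.10. The replicate block gave 233 calls, 222 higher and 11 lower. Correlations of deviations were 0.155, 0.011 and 0.055 between same-numbered arrays and -0.107 to 0.04 between arrays of different number. The mean of probe sets turned Apc to -1.64 (adjusted p = 0.000412). It averages 1435543_at, at 0.25, with the Apc probe sets at -3.03, -3.12 and -0.68. Ccnd1 turned to 0.02 with sex as a covariate, to 0.04 with array weights, to 0.04 without 15lox/15lox replicate 3 and to 0.08 without 15lox/1572T replicate 3. Myc turned to 0.03 without 15lox/15lox replicate 3. Over all arrays left out in turn Ccnd1 ranged from -0.19 to 0.08 and Myc from -0.88 to 0.03. The block lowered the adjusted p of Ms4a2 to 0.0144. The cause of the other changes was not tested. The array holds no counts, so depth could not be assessed; low levels limit folds.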

Other observations

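Several genes outside the named groups also separated the genotypes and were picked here after their values were seen. Fasl, the death ligand of cytotoxic lymphocytes, gave 8.09, 7.62 and 8.54 in 15lox/15lox and 4.45, 3.99 and 4.30 in 15lox/1572T, a difference of 3.84 ± 0.34 (limma, adjusted p = 0.00067). Cd160, a receptor of natural killer and T cells, gave 10.51, 10.48 and 10.71 against 6.43, 6.77 and 7.64, a difference of 3.62 ± 0.27 (adjusted p = 0.00039). In both genes all 15lox/15lox arrays lay above all 15lox/1572T arrays, as in all 219 genes called higher and in 6.11% of all genes. The 15lox/1572T mean of Fasl was 4.25, close to the floor of the array. Of 15 natural killer and innate lymphoid genes measured, 1 was called, Gata3, beside 1.27% of all genes, and the median difference was -0.11. Their 15lox/15lox means ran from 4.08 to 13.81, and in 5 of the 15 both genotype means were under 5.5.

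The cytokine Il18 was higher by 3.05 ± 0.42 (adjusted p = 0.00702). Mixl1, a homeobox gene of the primitive streak, gave 9.65, 9.77 and 8.61 against 6.21, 5.97 and 5.87 and was higher by 3.33 ± 0.31 (adjusted p = 0.00094). Epas1, a hypoxia-inducible transcription factor, was higher by 3.52 ± 0.37 (adjusted p = 0.00153), or by 1.94 where its probe sets were averaged. The growth factor Pdgfa differed by 2.99 ± 0.44 (adjusted p = 0.0106), with 15lox/1572T arrays spread from 7.14 to 8.98; without 15lox/1572T replicate 2 its adjusted p was 0.0536. Unc45b, a myosin chaperone of striated muscle, differed by 3.66 ± 0.38 (adjusted p = 0.00153). Beside Tubb3, the beta-tubulins Tubb2b and Tubb2a were higher by 3.01 ± 0.50 and 1.42 ± 0.21 (adjusted p = 0.0201 and 0.0113). Tubb2b missed the threshold without 15lox/15lox replicates 1, 2 or 3 (0.0906, 0.0545 and 0.0767) and without 15lox/1572T replicates 1 or 2 (0.0582 and 0.0854), and Tubb2a without replicate 1 of either genotype (0.0584 and 0.0542). Their sequences are similar, and cross-hybridisation was not tested.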
